A study of Arabidopsis thaliana with 8 samples.

Results

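QQS (AT3G30720) and 9 genes that share its place in the biology of starch were followed across 4 genotypes of Arabidopsis thaliana. The 9 other genes were NF-YC4 (AT5G63470), PGM1 (AT5G51820), ADG1 (AT5G48300), APL1 (AT5G19220), GBSS1 (AT1G32900), SBE2.2 (AT5G03650), SEX1 (AT1G10760), BAM3 (AT4G17090) and BAM1 (AT3G23920). The 10 genes were taken by locus, and all 10 were among the 20620 genes tested. QQS was chosen for its values on these arrays, so its values are a description and carry no test. RNA was taken from the aerial part of seedlings at 6 days, raised at 22 °C with 16 h light and 8 h dark per day, and 1 single-colour Agilent array was used per sample. There were 2 arrays for each of sdg8 sdg26 (which carries both mutations), sdg8, sdg26 and wild type (Col). Both mutated genes code for histone methyltransferases of the SET-domain class. The comparisons asked what each mutation does to transcript levels and how the mutations combine. The alleles, the number of lines and the time of day at collection are not given in the sources used here.

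QQS encodes a small protein of a young gene found in Arabidopsis thaliana with no recognisable relative in other plants. Lowering its expression is known to raise leaf starch, raising it shifts carbon and nitrogen between starch and protein, and its product binds NF-YC4, a histone-fold subunit of the NF-Y transcription factor. Leaves make starch in the chloroplast by day from glucose 1-phosphate and ADP-glucose, and break it down at night after phosphate groups are added to the granule surface. Transcripts of several breakdown enzymes follow the clock. In bulk tissue such as this, fewer cells of a type and less RNA per cell cannot be told apart.

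Each level is a log2 signal minus that of the array's own 75th percentile, so 0 stands for that percentile, and no probe's level is set against another's. The ± beside a difference is its standard error in a single limma model of the 8 arrays (n = 2 per genotype). "Rose", "fell" and "called" are used of genes with an adjusted p under 0.05 (Benjamini-Hochberg over the 20620 genes). SDG8 levels were -2.71 and -2.95 in sdg8 sdg26 and -3.58 and -3.22 in sdg8, against -0.63 and -0.36 in wild type. SDG26 levels were -4.00 and -5.00 in sdg8 sdg26 and -5.40 and -5.98 in sdg26, against -1.09 and -1.04 in wild type. Slide 4 held all 4 arrays of sdg8 sdg26 and sdg26, slide 3 held those of sdg8, and slides 1 and 2 held 1 wild-type array each, so that outside the comparison of sdg8 sdg26 with sdg26, slide and genotype cannot be told apart. The 11 leaf markers were well above background on all 8 arrays, and 9 to 12 of 12 root markers were too.

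QQS was far more abundant in sdg8 sdg26 and in sdg8 than in wild type. In sdg8 sdg26 its levels were 2.03 and 1.87, in sdg8 they were -0.33 and 0.16, in sdg26 they were -4.09 and -3.75, and in wild type they were -4.75 and -4.53. No genotype's arrays overlapped another's, and the order ran sdg8 sdg26, sdg8, sdg26, wild type. QQS was well above background on all 8 arrays and was read by 1 probe. Its mean was 1.95 ± 0.12 in sdg8 sdg26, -0.09 ± 0.35 in sdg8, -3.92 ± 0.25 in sdg26 and -4.64 ± 0.15 in wild type (SD, n = 2 each). The genotypes nearest to each other were sdg26 and wild type, which lay on different slides.

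**Figure D1:**
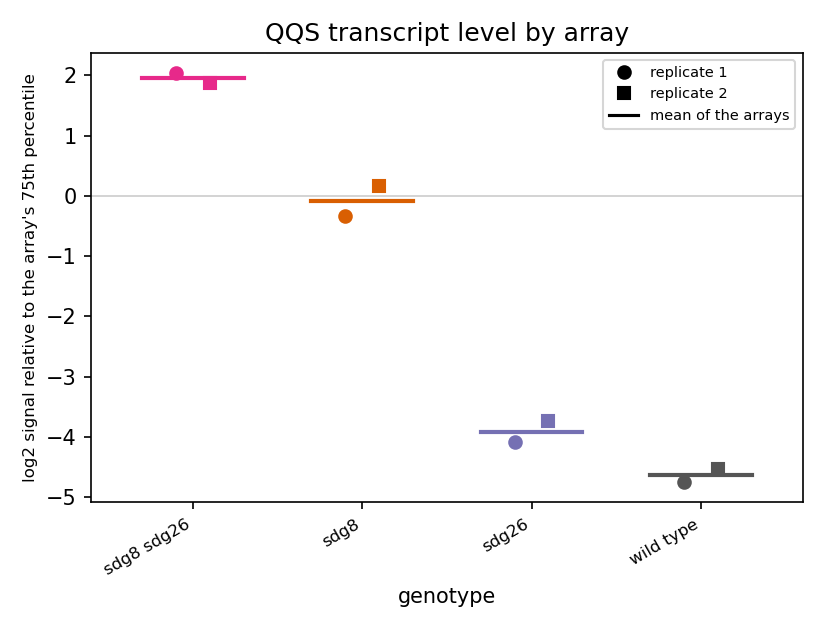
QQS level on each array (log2 signal relative to the array's 75th percentile, vertical axis) by genotype, with circles for replicate 1, squares for replicate 2 and a line at the mean of the arrays. Both sdg8 sdg26 arrays lie near 2, both sdg8 arrays near 0, and the sdg26 and wild-type arrays lie between -3.75 and -4.75.

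QQS was 96.4-fold higher in sdg8 sdg26 than in wild type (log2 difference 6.59 ± 0.21), the 2nd largest difference by size among the 20620 genes. In sdg8 it was 23.5-fold higher than in wild type (4.56 ± 0.21), the 7th largest. In sdg26 it was 1.65-fold higher than in wild type (0.72 ± 0.21), which placed it at 852. Each of these differences shares the wild-type arrays. Set against sdg26 on the same slide, sdg8 sdg26 had 58.4-fold more QQS signal (5.87 ± 0.21, the 3rd largest), and set against sdg8 it had 4.10-fold more (2.04 ± 0.21, at 117). The sdg8 difference was larger in the sdg26 background than in the wild-type background by 1.31 ± 0.30 on the log2 scale. Under a normexp correction for local background, which adds an offset of 50 to every signal, the log2 differences were 5.05 for sdg8 sdg26 and 2.93 for sdg8 against wild type, and 4.36 for sdg8 sdg26 against sdg26.

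The other 9 genes did not follow QQS at any size that passed the test. Of the 9, 0 rose and 0 fell in sdg8 sdg26 against wild type, where limma called 6.26% of all genes (3.06% higher and 3.19% lower). In sdg8 against wild type 0 of 9 were called, beside 2.68% of all genes (0.81% higher and 1.87% lower). In sdg26 against wild type 0 of 9 were called, beside 0.0097% of all genes. Of the 9, 0 were called in sdg8 sdg26 against sdg26 (2.21% of all genes, 0.718% higher and 1.49% lower), 0 in sdg8 sdg26 against sdg8 (0.281%, with 0.204% higher and 0.0776% lower) and 0 in the difference of the sdg8 effects (0.00485%). With so few members and such background shares, counts of 0 say little about the 9 genes as a list. At an unadjusted p under 0.05 there was 1 of 9 in sdg8 (SEX1), 1 of 9 in sdg26 (BAM1) and 0 of 9 in the other 4 comparisons. Of all genes, 26.1% passed it in sdg8 sdg26, 16.7% in sdg8 and 8.96% in sdg26 against wild type, 15.0% in sdg8 sdg26 against sdg26, 13.8% in sdg8 sdg26 against sdg8 and 4.49% in the difference of the sdg8 effects, so 1 of 9 is close to the share of all genes. Of the 9, 0 were called under any of the 20 other settings tried.

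The 95% interval of each gene gives the sizes of difference that the spread between these arrays allows. It does not cover a difference between slides. The 95% intervals of all 9 genes lay within 1 log2 unit of zero in sdg8 sdg26 against wild type (-0.87 to 0.66), in sdg8 against wild type (-0.97 to 0.83) and in sdg8 sdg26 against sdg8 (-0.60 to 0.81). In sdg26 against wild type 8 of 9 did, and in sdg8 sdg26 against sdg26 8 of 9 did, BAM3 being the exception in both. For the difference of the sdg8 effects 7 of 9 did (-0.79 to 1.62), with BAM3 and GBSS1 the exceptions. The median difference of the 9 was -0.05 in sdg8 sdg26, -0.09 in sdg8 and -0.19 in sdg26 against wild type, beside 0.03, -0.0093 and 0.02 over all genes. Their median absolute difference was 0.16, 0.16 and 0.19 in those comparisons, beside 0.25, 0.19 and 0.16 over all genes. On simulated data for sdg8 against wild type, 40.6% of genes changed by 1 log2 unit were recovered, so the test would miss many changes of that size.

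**Figure D2:**
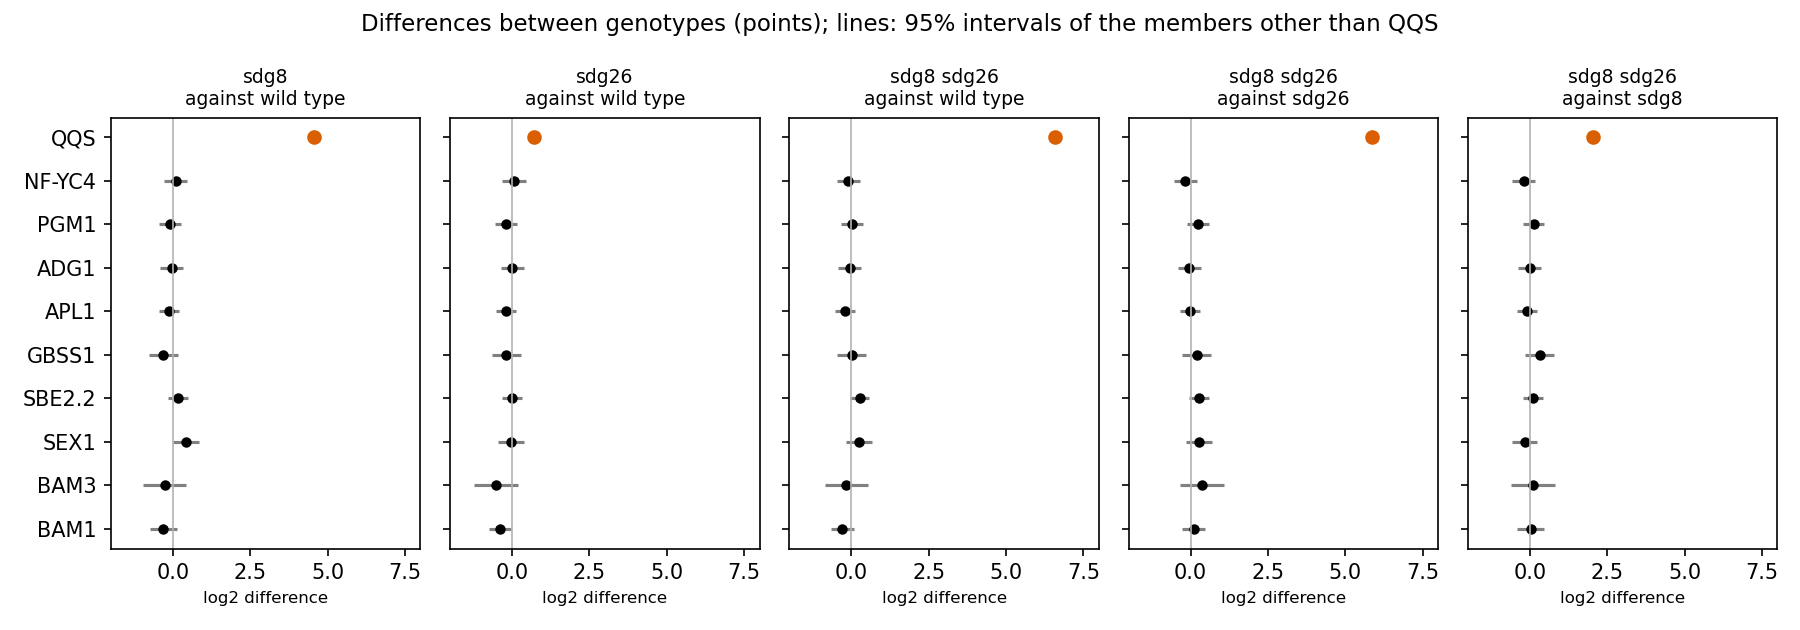
Log2 difference (horizontal axis) of each of the 10 genes in 5 comparisons between genotypes, with lines for the 95% interval of the 9 genes other than QQS. QQS lies at 4.56, 0.72, 6.59, 5.87 and 2.04 in the panels from left to right, and the other 9 genes lie between -0.52 and 0.42.

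By the probe used, NF-YC4, the QQS partner, varied least by genotype among the genes outside ADG1 (its genotype means spanned 0.20). Its levels were 0.81 and 0.61 in sdg8 sdg26, 0.83 and 0.99 in sdg8, 0.71 and 1.04 in sdg26, against 0.85 and 0.78 in wild type. Its arrays overlapped those of wild type in every mutant. The difference from wild type was -0.11 ± 0.16 in sdg8 sdg26 (adjusted p = 0.709), 0.09 ± 0.16 in sdg8 (0.819) and 0.06 ± 0.16 in sdg26 (0.920). A second probe of NF-YC4 gave -0.29, -0.056 and 0.046 in those comparisons, of the opposite sign in sdg8. It gave -0.34 in sdg8 sdg26 against sdg26, larger in size than the span of 0.21 of APL1. The ranking of NF-YC4 thus holds for the probe used alone.

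The 5 synthesis genes began with PGM1, the plastidial phosphoglucomutase that makes glucose 1-phosphate. PGM1 levels were 1.57 and 1.68 in sdg8 sdg26, 1.65 and 1.36 in sdg8, 1.50 and 1.28 in sdg26, against 1.61 and 1.59 in wild type. Both sdg26 arrays lay below both wild-type arrays, by a difference of -0.21 ± 0.15 (adjusted p = 0.700). ADG1 and APL1 encode the small subunit and a large subunit of ADP-glucose pyrophosphorylase, the enzyme that makes ADP-glucose. ADG1 levels were 3.41 and 3.09 in sdg8 sdg26, 3.22 and 3.29 in sdg8, 3.27 and 3.32 in sdg26, against 3.16 and 3.43 in wild type. The genotype means of ADG1 spanned 0.047, less than its pooled replicate SD of 0.15. APL1 levels were 2.40 and 2.24 in sdg8 sdg26, 2.45 and 2.38 in sdg8, 2.27 and 2.40 in sdg26, against 2.42 and 2.65 in wild type. The APL1 arrays of sdg8 sdg26 and of sdg26 lay below both wild-type arrays, by -0.21 ± 0.14 (adjusted p = 0.359) in sdg8 sdg26 and -0.20 ± 0.14 (0.690) in sdg26.

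GBSS1, the granule-bound starch synthase that makes amylose, had levels of 2.54 and 2.78 in sdg8 sdg26, 2.54 and 2.15 in sdg8, 2.64 and 2.28 in sdg26, against 2.75 and 2.55 in wild type. Only the sdg8 arrays lay wholly below wild type, by -0.30 ± 0.20 (adjusted p = 0.501). SBE2.2, a starch branching enzyme, had levels of 1.19 and 1.37 in sdg8 sdg26, 1.12 and 1.22 in sdg8, 1.03 and 0.98 in sdg26, against 0.91 and 1.12 in wild type. Both sdg8 sdg26 arrays lay above the wild-type and the sdg26 arrays. The difference was 0.27 ± 0.13 against wild type (adjusted p = 0.257) and 0.28 ± 0.13 against sdg26 on the same slide (0.392). As a description over 8 arrays of 4 genotypes, the Pearson correlation of SBE2.2 with QQS was 0.84, although its genotype means spanned 0.28 where those of QQS spanned 6.59.

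Of the 3 breakdown genes, SEX1 encodes the glucan, water dikinase that phosphorylates starch and opens it to amylases. SEX1 levels were 0.85 and 0.81 in sdg8 sdg26, 0.81 and 1.20 in sdg8, 0.60 and 0.52 in sdg26, against 0.43 and 0.75 in wild type. Both mutants with sdg8 lay above wild type on both arrays. The difference was 0.42 ± 0.17 in sdg8 (unadjusted p = 0.0490 and adjusted p = 0.298 in limma) and 0.24 ± 0.17 in sdg8 sdg26 (adjusted p = 0.416). The correlation of SEX1 with QQS over the 8 arrays was 0.69, and that of the 6 other genes with values on all arrays lay between -0.40 and 0.25.

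BAM3 and BAM1 encode chloroplast beta-amylases, which release maltose. BAM3 levels were 2.47 and 2.87 in sdg8 sdg26, 2.93 and 2.19 in sdg8, 2.57 and 2.05 in sdg26, against 2.96 and 2.70 in wild type. Its replicates differed more than those of the other genes (pooled SD 0.36), and its sdg26 difference of -0.52 ± 0.30, the largest by size among the 9 genes, had an adjusted p of 0.644. BAM1 levels were 2.39 and 2.11 in sdg8 sdg26, 2.23 in sdg8, 2.24 and 2.08 in sdg26, against 2.58 and 2.50 in wild type. The BAM1 spot of sdg8 replicate 1 was non-uniform and set to missing. All measured mutant arrays lay below both wild-type arrays. The difference was -0.29 ± 0.15 in sdg8 sdg26 (adjusted p = 0.286), -0.31 ± 0.19 in sdg8 (0.472, n = 1 sdg8 array, limma) and -0.38 ± 0.15 in sdg26 (unadjusted p = 0.0472, adjusted p = 0.551). With the non-uniform spot kept, the sdg8 difference was -0.20. Against wild type, 4 of 9 genes had arrays that did not overlap in each of the 3 mutants, beside 54.8% of all genes in sdg8 sdg26, 47.9% in sdg8 and 41.3% in sdg26. The sdg8 count includes BAM1, read on 1 sdg8 array, whereas the 47.9% covers the 20520 genes with values on every array compared.

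**Figure D3:**
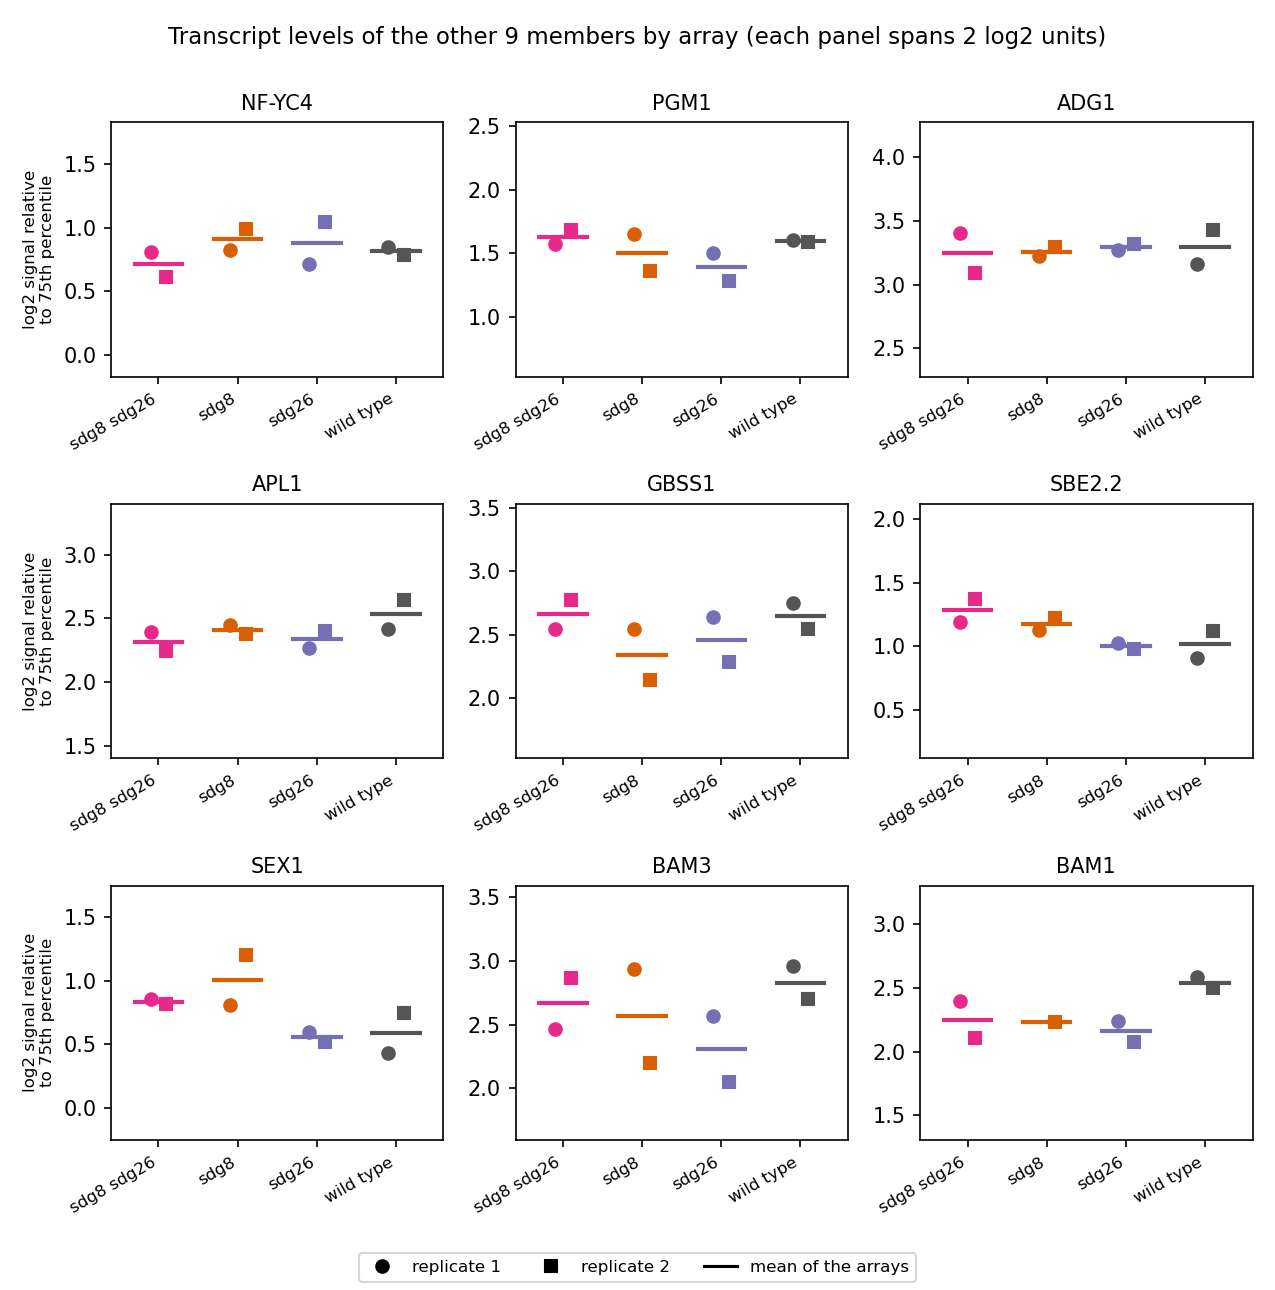
Levels of the 9 genes other than QQS on each array (log2 signal relative to the array's 75th percentile, vertical axis, each panel spanning 2 log2 units) by genotype, with circles for replicate 1, squares for replicate 2 and lines at the mean. BAM1 has 1 sdg8 array, and BAM3 shows the widest gaps between replicates.

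The rest of the starch pathway was compared by lists of genes. Of 17 other synthesis genes, all tested, 0 rose and 0 fell in any of the 6 comparisons by limma, and 6, 2 and 1 had an unadjusted p under 0.05 in sdg8 sdg26, sdg8 and sdg26 against wild type, beside 26.1%, 16.7% and 8.96% of all genes. Their median difference was 0.04, 0.0087 and 0.02 in those comparisons. The smallest p in sdg8 sdg26 belonged to MFP1, a thylakoid protein that takes part in granule initiation (-0.46 ± 0.12, adjusted p = 0.0746), SS2, a starch synthase (-0.59 ± 0.18, 0.0974), and AT5G39790 (0.42 ± 0.13, 0.102).

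Of 22 other breakdown genes, 21 were tested and 3 passed the test somewhere. Against wild type, 1 rose and 1 fell in sdg8 sdg26, beside 3.06% and 3.19% of all genes. In sdg8 against wild type 0 rose and 1 fell, beside 0.81% and 1.87%. In sdg8 sdg26 against sdg26, 1 rose and 1 fell, beside 0.718% and 1.49%. The other comparisons had 0 calls. Counts this small say little about the list. BAM6, a member of the beta-amylase family, had levels of -3.94 and -3.89 in sdg8 sdg26, -3.88 and -3.65 in sdg8, -2.29 and -2.67 in sdg26, against -2.74 and -2.35 in wild type. The 4 arrays with the sdg8 mutation lay below the 4 arrays without it. BAM6 fell in sdg8 sdg26 against wild type (-1.37 ± 0.19, adjusted p = 0.0134), in sdg8 against wild type (-1.22 ± 0.19, 0.0301) and in sdg8 sdg26 against sdg26 on the same slide (-1.44 ± 0.19, 0.0173). ISA3, a debranching enzyme of breakdown, had levels of -1.92 and -1.95 in sdg8 sdg26, -2.55 and -2.26 in sdg8, -2.69 and -2.88 in sdg26, against -3.24 and -2.65 in wild type. It rose in sdg8 sdg26 against wild type (1.01 ± 0.21, adjusted p = 0.0427). DPE1, the plastidial disproportionating enzyme that acts on maltotriose, had levels of -0.79 and -0.69 in sdg8 sdg26 and -0.81 and -0.77 in sdg8. Its levels were -1.33 and -1.46 in sdg26, below the -1.06 and -1.15 of wild type. It rose in sdg8 sdg26 against sdg26 (0.66 ± 0.12, limma adjusted p = 0.0454). The mean over the probes of DPE1 gave 0.29 (adjusted p = 0.654), so its probes disagree.

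These calls rest on few arrays. The BAM6 call in sdg8 sdg26 against wild type was lost without sdg8 sdg26 replicate 1 (adjusted p = 0.0565) or 2 (0.0565) and without wild-type replicate 2 (0.0550), with the log2 difference at -1.35, -1.40 and -1.17. Against sdg26 the BAM6 call was lost without sdg26 replicate 1 (0.0981) or 2 (0.0566) and without sdg8 sdg26 replicate 1 (0.0766) or 2 (0.0736). The sdg8 call of BAM6 was lost without any 1 of the 6 arrays of sdg8, sdg8 sdg26 and wild type (0.0502 to 0.137), that of ISA3 without any 1 array other than wild-type replicate 2 (0.0625 to 0.139), and that of DPE1 without any 1 of the 8 arrays (0.0708 to 0.256). With normexp on the local background, limma called 0 genes of all 20620 in each comparison, so each call of a gene named here was lost under that setting. This includes SDG8 in sdg8. The local background reached 229880 on sdg26 replicate 2, against array medians of 26 to 32. With normexp on the array median background, 2108 genes were called in sdg8 sdg26 and 296 in sdg8 against wild type. Whether such spots lay behind the loss of calls was not tested. Over the 21 genes the median difference was 0.11, 0.16 and 0.02 in sdg8 sdg26, sdg8 and sdg26 against wild type. Of all 46 starch genes tested, the 8 members included, 44 had genotype means that spanned less than 1 log2 unit, as most genes did (11.4% of all genes spanned 1 or more). The median span was 0.32 over the 46 and 0.37 over all genes.

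**Figure D4:**
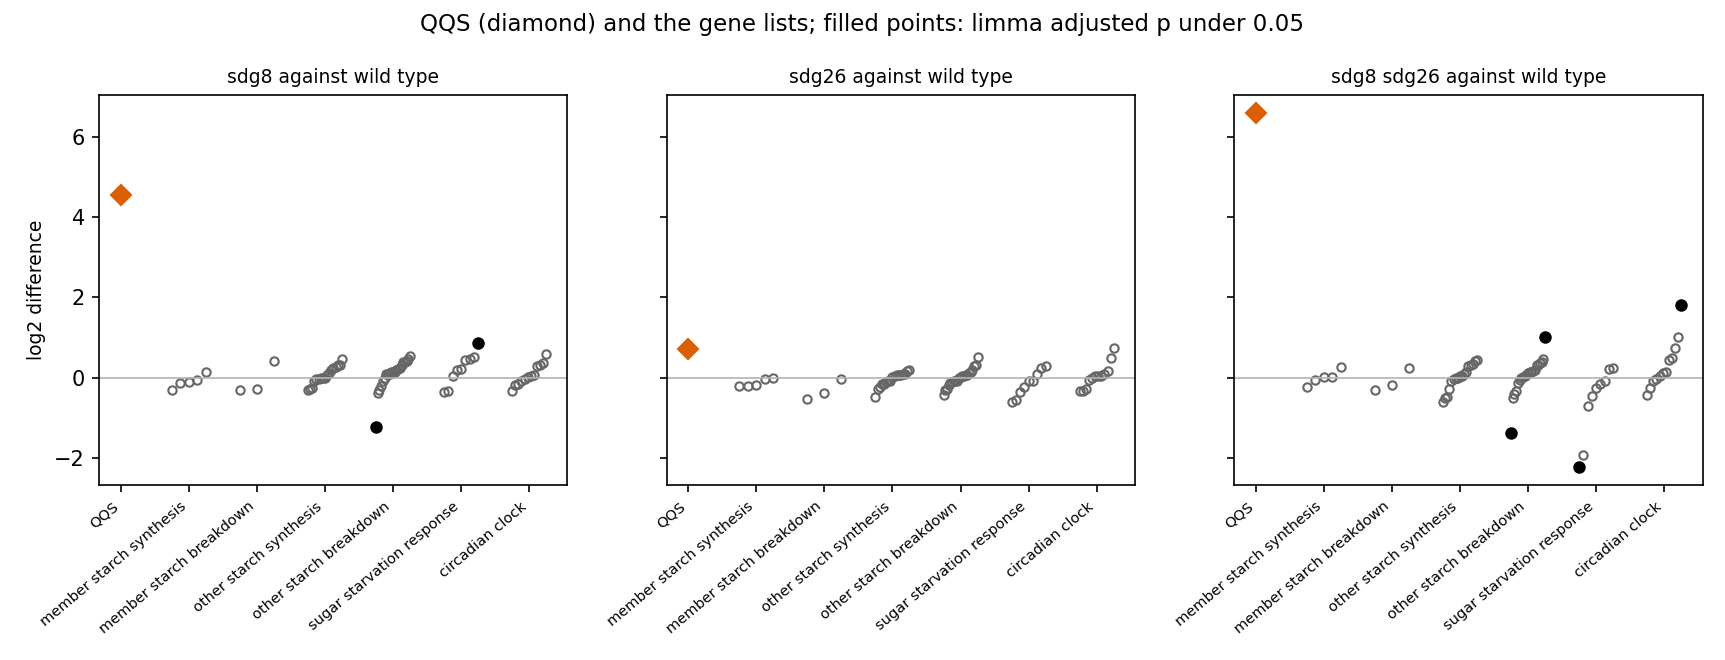
Log2 difference from wild type (vertical axis) of QQS (diamond) and of the genes of 6 lists (circles, ordered by value within a list) in sdg8, sdg26 and sdg8 sdg26, with filled circles where limma's adjusted p was under 0.05. BAM6 is the low filled point of other starch breakdown in the sdg8 and sdg8 sdg26 panels and ISA3 the high one, TPS10 and SEN1 are the high and low filled points of the sugar list, and ELF4 is that of the clock list.

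Other NF-YC subunits, clock genes and genes of the sugar starvation response were listed beside the pathway. Of 5 other NF-YC subunits 4 were tested, and NF-YC3 fell in sdg8 sdg26 against sdg26 (-0.66 ± 0.12, adjusted p = 0.0437), a call lost without any 1 of the 8 arrays (0.0740 to 0.233). NF-YC3 was the 1 call among these 4 genes, where 1.49% of all genes were called lower in that comparison. NF-YC3 levels were -1.79 and -1.81 in sdg8 sdg26, -1.57 and -1.39 in sdg8, -1.17 and -1.12 in sdg26, against -1.37 and -1.35 in wild type. Of 12 clock genes, 1 rose and 0 fell in sdg8 sdg26 against wild type, beside 3.06% and 3.19% of all genes. It was ELF4, a subunit of the evening complex, with levels of -3.18 and -3.94 in sdg8 sdg26, against -5.05 and -5.71 in wild type (1.82 ± 0.40, adjusted p = 0.0491). The ELF4 call was lost without any 1 of the 8 arrays (0.0518 to 0.154), and its difference turned to -0.34 with normexp on the local background. The clock list had 0 calls in the other 5 comparisons.

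Of 9 genes of the sugar starvation response, 1 rose in sdg8 and 1 fell in sdg8 sdg26, each against wild type. Of all genes, 0.81% were called higher in sdg8 and 3.19% lower in sdg8 sdg26, so counts of 1 say little about the list. TPS10, a trehalose-phosphate synthase family member, had levels of -0.50 and -0.44 in sdg8, against -1.30 and -1.39 in wild type, and rose (0.87 ± 0.14, limma adjusted p = 0.0279). Its levels in sdg8 sdg26, which also carries the sdg8 mutation, were -1.23 and -1.01, near the -1.19 and -1.01 of sdg26. SEN1, a gene induced by darkness and senescence, had levels of -1.95 and -2.71 in sdg8 sdg26, against 0.13 and -0.36 in wild type, and fell (-2.21 ± 0.42, adjusted p = 0.0324). The TPS10 call was lost without any 1 of the arrays of sdg8, sdg26 and wild type (0.0515 to 0.132), and the SEN1 call without sdg8 sdg26 replicate 1 (0.0559) or 2 (0.130) or wild-type replicate 1 (0.140) or 2 (0.0794). All 9 genes of this list lay lower in sdg8 sdg26 than in sdg8 (median -0.65, 0 called, 5 at an unadjusted limma p under 0.05). Of all genes, 57.3% lay higher in that comparison and 13.8% had such a p. Against wild type, 7 of the 9 lay higher in sdg8 and 7 lay lower in sdg8 sdg26.

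Markers of other tissues moved between genotypes. Of 12 root markers tested, 12 lay higher in sdg8 sdg26 (median 0.87), 8 in sdg8 (median 0.36) and 12 in sdg26 (median 0.60) than in wild type. Of all genes, 53.2%, 48.7% and 53.4% lay higher in those comparisons. In sdg8 sdg26 against wild type 3 of the 12, RSL4 among them, were called higher, beside 3.06% of all genes. There CASP1 (0.97 ± 0.20, limma adjusted p = 0.0420) and EXPA7 (1.71 ± 0.28, 0.0206) rose. RSL4 lay higher (1.36 ± 0.28, limma adjusted p = 0.0384). It was well above background on both arrays of sdg8 sdg26 and of sdg26, and on neither wild-type array. The filter thus kept its probe only through genotypes where it is high, so its p-value carries no weight. The size of its difference is also uncertain. On each wild-type array 9 of the 12 root markers were well above background, and on each sdg8 sdg26 array 12 were. IRT1, an iron transporter of root epidermis, fell in sdg8 against wild type (-1.45 ± 0.18, adjusted p = 0.0128) and rose in sdg8 sdg26 against sdg8 (2.17 ± 0.18, 0.0170), and in sdg26 against wild type 0 of 12 were called. It was the 1 of 12 called in sdg8, beside 1.87% of all genes lower. It was also the 1 of 12 called in sdg8 sdg26 against sdg8, beside 0.204% of all genes higher. The CASP1 call was lost without any 1 of the 8 arrays (0.0507 to 0.148), the RSL4 call without any 1 array of sdg8 sdg26, sdg8 and wild type (0.0610 to 0.153) and the EXPA7 call without any 1 array of sdg8 sdg26 and wild type (0.0619 to 0.106). The IRT1 call in sdg8 was lost without either sdg8 array or wild-type replicate 1 (0.0588 to 0.0785), and that in sdg8 sdg26 against sdg8 without either sdg8 array or sdg8 sdg26 replicate 1 (0.0564 to 0.0800). The RSL4 difference turned to -1.13 with normexp on the local background. Their summed signal, in units of the 75th percentile, ranged over 10.8 to 13.1 in sdg8 sdg26, 9.73 to 10.3 in sdg8 and 9.76 to 12.4 in sdg26, against 9.99 to 11.04 in wild type. All 11 leaf markers were lower than in wild type in sdg8 sdg26 (median -0.22) and in sdg26 (median -0.22), and 10 of 11 were in sdg8 (median -0.17), with 0 called in each. The leaf markers had summed signals of 259 to 337 in sdg8 sdg26, 315 to 324 in sdg8 and 269 to 347 in sdg26, against 311 to 422 in wild type. The 14 seed markers had summed signals of 1.92 to 8.47 in sdg8 sdg26, 1.32 to 4.07 in sdg8 and 1.49 to 3.20 in sdg26, against 3.25 to 19.8 in wild type, with 0 called. All 14 lay lower than in wild type in sdg8 (median -2.08) and in sdg26 (median -2.15). In sdg8 sdg26 10 of 14 did (median -1.14). Replicates differed widely in these markers, with sums of 19.8 in wild-type replicate 1 and 3.25 in wild-type replicate 2. The part of the root, leaf and seed markers in the values of QQS and the starch genes was not tested.

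QQS lies on chromosome 3 among pseudogenes. Of the 10 loci nearest to it in the gene table, 5 on each side, 7 are pseudogenes and 1, GDU6, has a probe. GDU6, of the glutamine dumper family, had levels of -6.04 and -6.58 in sdg8 sdg26, -6.75 and -6.95 in sdg8, -6.69 and -8.25 in sdg26, against -8.81 and -8.30 in wild type. It was well above background on 2 of 2 arrays of sdg8 sdg26, 0 of 2 of sdg8, 1 of 2 of sdg26 and 0 of 2 of wild type. The filter thus kept its probe only through sdg8 sdg26, the genotype where it is high, so its p-value against wild type carries no weight. In sdg8 sdg26 against wild type the log2 difference of GDU6 was 2.25 ± 0.48 (limma adjusted p = 0.0453). Its wild-type signals were not above background, so the size of this difference is uncertain. This call was lost without any 1 array other than the sdg26 arrays (0.0720 to 0.173), and the difference turned to -1.41 with normexp on the local background.

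Among the 5 tested genes nearest on each side, AT3G30841, 66 loci away, also passed the test. It had levels of -3.28 and -3.33 in sdg8 sdg26, -3.57 and -3.41 in sdg8, -2.42 and -2.45 in sdg26, against -2.54 and -2.29 in wild type. The 4 arrays with the sdg8 mutation lay below the 4 without it, and sdg8 was lowest. It fell in sdg8 sdg26 (-0.89 ± 0.13, adjusted p = 0.0162) and in sdg8 (-1.07 ± 0.13, 0.0140) against wild type and in sdg8 sdg26 against sdg26 (-0.87 ± 0.13, 0.0255). The first call was lost without sdg8 sdg26 replicate 1 (0.0572) or 2 (0.0715) or wild-type replicate 2 (0.0613), the second without sdg8 replicate 1 (0.0857) or 2 (0.0611) or wild-type replicate 2 (0.0669), and the third without any 1 array of sdg8 sdg26, sdg8 and sdg26 (0.0522 to 0.154). The other 8 of these 10 neighbours were not called in any comparison. In each of the comparisons where AT3G30841 fell, 1 of 10 neighbours was called lower. Of all genes, 3.19% were called lower in sdg8 sdg26 and 1.87% in sdg8 against wild type, and 1.49% in sdg8 sdg26 against sdg26.

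Genes whose pattern was most like that of QQS were sought among the 2325 genes whose genotype means spanned at least 1 log2 unit. The points are 8 arrays of 4 genotypes, so the correlation mainly follows genotype means, and the genes were picked as the highest of many. The 5 highest Pearson correlations were those of AT2G27430 (0.996), AT5G24640 (0.992), AT3G03270 (0.988), TIM23-3 (0.987) and FT (0.985). FT, the mobile activator of flowering, had levels of -2.77 and -2.55 in sdg8 sdg26, -3.52 and -3.44 in sdg8, -4.88 and -5.39 in sdg26, against -5.26 and -5.42 in wild type. AT5G24640 had levels of -0.89 and -0.74 in sdg8 sdg26, -1.34 and -1.34 in sdg8, -3.11 and -2.78 in sdg26, against -3.38 and -3.19 in wild type. The spans of these 5 genes ran from 1.06 to 2.69, against 6.59 for QQS.

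The 5 lowest correlations were those of AT5G10950 (-0.993), AT2G26860 (-0.991), AT5G10946 (-0.991), AT5G37290 (-0.991) and CYP71B5, a cytochrome P450 gene (-0.989). AT5G10950 had levels of -1.60 and -1.22 in sdg8 sdg26, -0.31 and -0.57 in sdg8, 1.06 and 0.70 in sdg26, against 1.37 and 1.12 in wild type. AT5G10946 had levels of -4.70 and -5.25 in sdg8 sdg26, -4.01 and -4.10 in sdg8, -2.38 and -2.47 in sdg26, against -2.08 and -2.18 in wild type. AT5G10946 and AT5G10950 are neighbouring loci in the gene table. In these 5 genes the arrays of both genotypes with the sdg8 mutation lay below those without it.

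**Figure D5:**
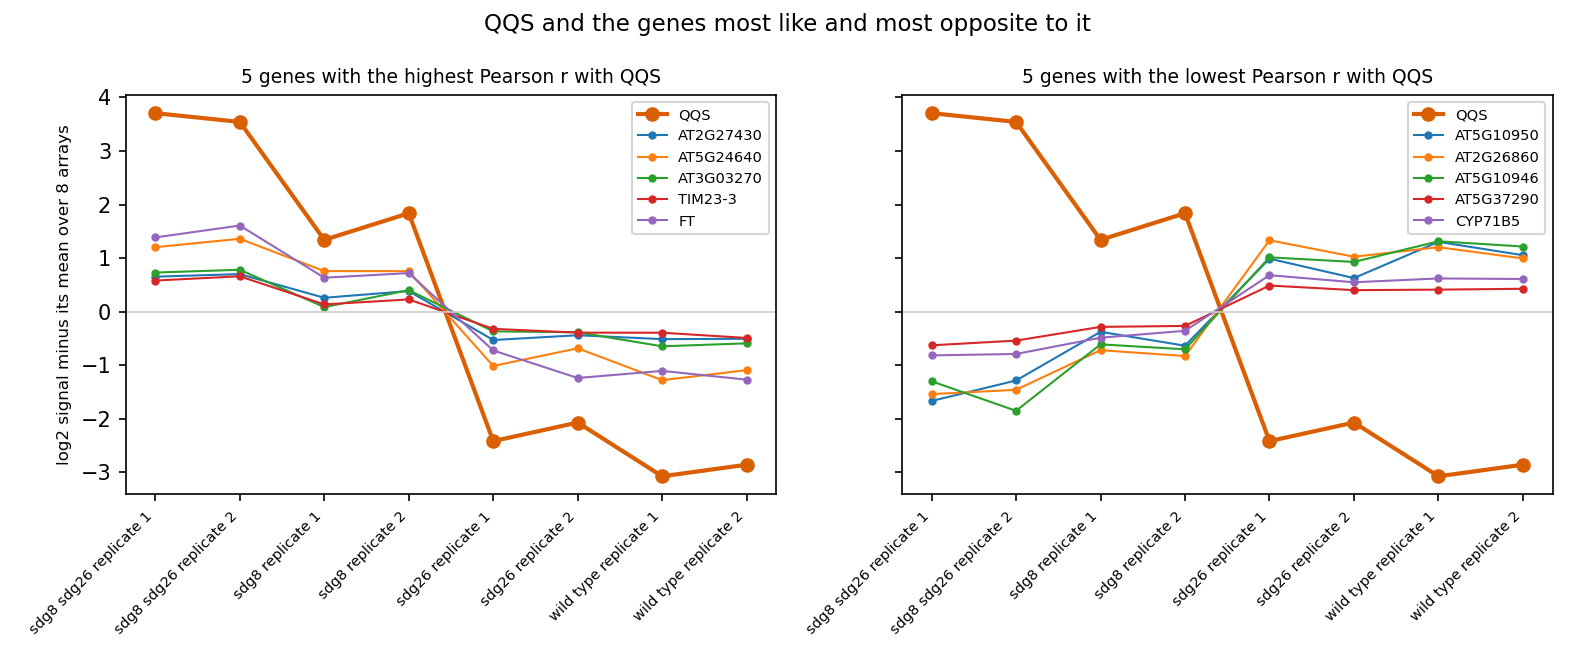
Log2 signal minus its mean over the 8 arrays (vertical axis) for QQS and the 5 genes of highest (left) and lowest (right) Pearson correlation with it, array by array. All 5 genes on the left are high in sdg8 sdg26 and sdg8, and all 5 on the right are low there, over narrower ranges than QQS.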

How the data were processed

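RNA of 8 samples was measured on 8 single-colour Agilent arrays, 2 per genotype, grouped by sample title. Spot intensity values were extracted by the authors with Agilent's Feature Extraction software (11.5.1.1 according to the files, per the file headers; 9.1 per the submitters' processing notes), which subtracts background in the processed intensity. A deposited table of log2 values differed from the values used here by nearly 1 constant per array (medians -0.0103 to -0.0067), had column medians of -2.37 to -2.29 and served as an alternative. The series text speaks of 3 RNA sets per genotype in each of 2 experiments without saying which gave which array, so the p-values cover the spread between these arrays alone, which may be technical.

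Log2 of the processed signal minus the array's 75th percentile over non-control spots was taken, non-uniform spots (18 to 83 per array) were set to missing, and spots of a probe were averaged. A probe was kept where both arrays of 1 genotype or more had it well above background, and a gene was read by its kept probe of highest mean signal. The flag was first limited to uniform spots. The flag as deposited was adopted after the counts of calls under both had been seen, and both are reported. Of the 43603 probes, 34285 were linked to a locus through the RefSeq table of TAIR10.1, of another build than the arrays' design, which was used for names and for which loci neighbour each other.

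Genotypes were compared in 1 fit with limma 3.58.1 (R 4.3.3, statmod 1.5.0), two-sided, with 4 residual and 2.81 prior degrees of freedom, in 6 comparisons. The steps were tested on simulated data. Replicates correlated at 0.985 to 0.991, and the number of arrays limits the precision. Alternatives changed the background correction, normalization, filter, probe rule, arrays in the fit, slide block, replicate block and the arrays left out. Genes named are the 10 members, listed genes that were called with up to 3 of smallest p, neighbours of QQS and the 5 genes most and least correlated with it. Genes and lists were chosen with earlier results of these data known. The main fit did not pair samples by replicate number. Differences between replicates correlated at 0.15 to 0.39 among wild type, sdg8 and sdg26. Each of these correlated at -0.40 to -0.16 with sdg8 sdg26. Whether a factor shared by replicates lay behind this was not tested.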

Additional observations from a re-analysis of the deposited data

How the results depend on the processing

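The 9 genes other than QQS gave 0 calls wherever they could be fitted under the 20 other settings tried. Of these settings, 2 (non-uniform spots kept, and the background flag of uniform spots alone) were added after seeing the data. The difference of the sdg8 effects was fitted under 19 settings. BAM1 was fitted under 19 for the other comparisons and under 18 for that difference. QQS kept its sign in every comparison, with log2 differences of 5.05 to 6.70 for sdg8 sdg26, 2.93 to 4.80 for sdg8 and 0.51 to 0.90 for sdg26 against wild type, 4.36 to 6.04 for sdg8 sdg26 against sdg26, 1.79 to 2.28 for sdg8 sdg26 against sdg8 and 1.07 to 1.62 for the difference of the sdg8 effects. The small differences of the other genes did not keep their signs: 28 of 54 turned in at least 1 setting, in 65 of 1065 values, none called, and the cause was not tested. Normexp on the local background moved the median of all genes by up to 0.29 in size (-0.29 for sdg8 sdg26 against sdg26), so its values are relative to such shifts. It gave, in sdg8 sdg26 against wild type, 0.13 (NF-YC4), -0.35 (PGM1), -0.084 (SBE2.2), -0.34 (ELF4), -1.41 (GDU6) and -1.13 (RSL4); in sdg8 against wild type 0.054 (ADG1); in sdg8 sdg26 against sdg26 0.070 (NF-YC4) and 0.17 (APL1); in sdg8 sdg26 against sdg8 0.021 (NF-YC4), -0.28 (PGM1), 0.074 (APL1), -0.33 (SBE2.2) and -0.23 (BAM3); and 0.014 (SEX1) for the difference of the sdg8 effects. Normexp on the array median background gave 0.095 (NF-YC4), -0.41 (PGM1) and -0.13 (SBE2.2) in sdg8 sdg26 against wild type, 0.088 (APL1) and -0.057 (BAM1) against sdg26, and 0.0088 (NF-YC4), -0.30 (PGM1), 0.053 (APL1), -0.34 (SBE2.2) and -0.25 (BAM3) against sdg8. Quantile normalization turned ADG1 to 0.10 in sdg8 sdg26, 0.11 in sdg8 and 0.11 in sdg26 against wild type, and SBE2.2 to 0.0071 in sdg26. The deposited log2 values turned ADG1 to 0.0010 in sdg26 against wild type and BAM1 to -0.095 in sdg8 sdg26 against sdg8, where the replicate block gave -0.067 and keeping non-uniform spots -0.094. Leaving out 1 array at a time gave ranges that crossed zero. In sdg8 sdg26 against wild type they were -0.024 to 0.082 (PGM1), -0.20 to 0.11 (ADG1), -0.10 to 0.13 (GBSS1) and -0.36 to 0.037 (BAM3). In sdg8 against wild type they were -0.24 to 0.051 (PGM1), -0.18 to 0.093 (ADG1) and -0.63 to 0.10 (BAM3), and in sdg26 against wild type -0.11 to 0.23 (NF-YC4), -0.13 to 0.13 (ADG1), -0.12 to 0.091 (SBE2.2) and -0.19 to 0.13 (SEX1). In sdg8 sdg26 against sdg26 they were -0.33 to 0.00015 (NF-YC4), -0.20 to 0.11 (ADG1), -0.095 to 0.061 (APL1) and -0.051 to 0.24 (BAM1). In sdg8 sdg26 against sdg8 they were -0.022 to 0.26 (PGM1), -0.16 to 0.15 (ADG1), -0.37 to 0.022 (SEX1), -0.27 to 0.47 (BAM3) and -0.12 to 0.17 (BAM1), and for the difference of the sdg8 effects -0.16 to 0.15 (ADG1), -0.010 to 0.22 (APL1) and -0.34 to 0.054 (SEX1).

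Counts over all genes moved more. The counts were 1290 for sdg8 sdg26, 553 for sdg8 and 2 for sdg26 against wild type, 455 for sdg8 sdg26 against sdg26, 58 for sdg8 sdg26 against sdg8 and 1 for the difference of the sdg8 effects. In that order, normexp on the local background called 0 in each, normexp on the array median 2108, 296, 5, 348, 87 and 3, no filter 727, 222, 2, 263, 0 and 0, the arrays compared alone 497, 214, 4, 171 and 0, and the replicate block 900, 349, 1, 318, 36 and 0. The strict filter called 23 for sdg8 sdg26 against sdg8. For sdg26 the strict filter called 4, quantile normalization 5 and the mean of all kept probes 5, and quantile normalization called 2 for the difference of the sdg8 effects. The background flag of uniform spots alone called 1288, 565, 2, 454, 58 and 1. Leaving out 1 array called 413 to 873, 135 to 487, 0 to 7, 94 to 348, 2 to 132 and 0 to 4. The replicate block also lost SDG26 in sdg26 against wild type (adjusted p = 0.0502), CASP1 (0.0690), BAM6 in sdg8 (adjusted p = 0.0578), ISA3 (0.0607), SEN1 (0.0589), ELF4 (0.0803), GDU6 (0.0560), DPE1 (0.0900), NF-YC3 (0.0831) and AT3G30841 in sdg8 sdg26 against sdg26 (0.0518). Precision is set by 2 arrays per genotype and, for GDU6 and RSL4, by signals near background.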
